A study of Mus musculus with 12 samples.

Results

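The TRBV13 family of T cell receptor (TCR) beta variable segments, known in older nomenclature as Vβ8, was followed through beta chain repertoires of transferred CD4+ T cells. Its 3 members, TRBV13-1, TRBV13-2 and TRBV13-3, were 3 of the 31 V segments named in the tables. A clonotype, that is 1 rearranged sequence of complementarity-determining region 3 (CDR3) with its V and J segment, was counted to the family when its best V hit was 1 of these 3 segments. This gave 27448 of 113665 clonotype entries and 444809 of 1716882 unique molecular identifiers (UMIs), each UMI marking 1 cDNA molecule. By member, TRBV13-2 had 12659 entries, TRBV13-1 had 8005 and TRBV13-3 had 6784. The rule uses segment names and no measured value.

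The cells came from C57BL/6 donors with floxed Prkaa1 alleles, the gene of the AMPKα1 subunit. WT donors were Prkaa1fl/fl without Cre, and KO donors were Prkaa1fl/fl with CD4-Cre, which acts from the thymic stage that carries CD4 and CD8. Deletion in KO therefore covers all descendants of that stage and not CD4+ T cells alone, and it follows rearrangement of the beta locus. Naive CD4+ T cells of either genotype had been injected into Rag2–/– hosts, which make no T or B cells of their own, to induce transfer colitis. Donor cells were recovered after 6 weeks from mesenteric lymph node (mLN) and spleen. The labels give no age and no litter. The study's methods state a general age range for its mice and describe the WT and KO animals compared as littermates. There were 3 mice for each genotype (WT replicates 1, 3 and 4, KO replicates 1, 2 and 3) with 1 library for each organ, hence 12 libraries in 4 groups of 3. The tables hold beta chain sequences only, so neither the T cell identity nor the loss of Prkaa1 could be checked in them.

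Library totals ran from 2488 UMIs in KO replicate 3 mLN to 493287, and family totals from 717 to 123327. In 7 libraries 26.1% to 38.3% of clonotypes seen with 1 UMI ended in a J sequence unusual for their J segment (in the last 9 CDR3 bases), against 2.42% to 5.85% in the other 5, namely the pair from WT replicate 1, the pair from KO replicate 1, and the mLN of KO replicate 3. These 5 libraries held 2488 to 64882 UMIs and the 7 others 68536 to 493287, so the kind of library cannot be told apart from depth. Family clonotypes whose share in some other mouse was 100-fold or more above their own made up 0% to 1.95% of family clonotypes and at most 0.325% of family UMIs. Counting intervals are Wilson 95% intervals and cover counting error only.

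A beta chain is built in the thymus by joining a V, a D and a J segment. The V segment encodes the CDR1 and CDR2 loops, which mostly touch the major histocompatibility complex molecule, whereas the CDR3 spans the junction and mostly touches the peptide. TRBV13 segments are among the commonly used V segments of mouse CD4+ T cells, and TRBV13-2 (Vβ8.2) is known from T cell responses to myelin basic protein, from the receptors of invariant natural killer T cells and from the binding of staphylococcal enterotoxin B.

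In the GRCm38.p6 genome the 3 members lie on the plus strand of chromosome 6, Trbv13-1 at 41116036 to 41116468, Trbv13-2 at 41121396 to 41121832 and Trbv13-3 at 41130147 to 41130585. Each consists of 2 exons, the second encoding the variable domain. The deposited tables name no genome build. The match rests on the sequence itself, because among clonotypes with an untrimmed V segment 93.0% of 213 (TRBV13-1), 95.9% of 486 (TRBV13-2) and 92.0% of 150 (TRBV13-3) began with the genomic end of their segment. The second exons are shown because they are what sets the members apart. Capitals mark the 49 of 294 positions at which the 3 members are not alike.
TRBV13-1, chr6:41116175-41116468: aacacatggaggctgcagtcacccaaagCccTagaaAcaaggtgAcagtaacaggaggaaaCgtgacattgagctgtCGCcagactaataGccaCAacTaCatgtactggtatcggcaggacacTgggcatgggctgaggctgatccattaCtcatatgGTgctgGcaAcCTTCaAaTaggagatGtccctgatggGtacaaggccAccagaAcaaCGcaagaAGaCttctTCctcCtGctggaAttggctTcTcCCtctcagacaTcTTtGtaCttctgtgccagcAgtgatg
TRBV13-2, chr6:41121539-41121832: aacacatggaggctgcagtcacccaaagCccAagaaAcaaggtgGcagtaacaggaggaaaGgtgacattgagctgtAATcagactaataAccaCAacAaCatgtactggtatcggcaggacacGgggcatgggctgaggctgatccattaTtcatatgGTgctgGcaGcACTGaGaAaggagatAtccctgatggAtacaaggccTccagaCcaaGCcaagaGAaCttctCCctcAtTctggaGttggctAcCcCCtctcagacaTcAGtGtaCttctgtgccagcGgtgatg
TRBV13-3, chr6:41130292-41130585: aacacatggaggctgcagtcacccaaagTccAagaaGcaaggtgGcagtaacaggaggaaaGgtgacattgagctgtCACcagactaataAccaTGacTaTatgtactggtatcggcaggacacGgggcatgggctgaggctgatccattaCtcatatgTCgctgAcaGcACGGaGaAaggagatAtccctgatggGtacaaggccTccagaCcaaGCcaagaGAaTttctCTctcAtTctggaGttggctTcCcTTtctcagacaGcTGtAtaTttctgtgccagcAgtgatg
TRBV13-2 and TRBV13-3 were the closest pair with 91.8% identical bases, followed by TRBV13-1 with TRBV13-2 (88.8%) and TRBV13-1 with TRBV13-3 (86.1%). The last 16 bases belong to the CDR3. There TRBV13-1 and TRBV13-3 are the same and TRBV13-2 differs from both by A10G, counted from 1 at the first base of the cysteine codon and with the base of TRBV13-1 or TRBV13-3 first. Assignment between TRBV13-1 and TRBV13-3 therefore rests on sequence before the CDR3. Per library, 0 to 7 family clonotypes, with at most 0.0182% of family UMIs, had a second V segment with a best score equal to the first.

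The CDR3 sequences that the leading results below turn on are the largest family clonotypes of each mouse, and they are called below by mouse, V and J segment. Capitals mark bases that lie between the end of the V match and the start of the J match.
WT replicate 1, TRBV13-3 and TRBJ2-7: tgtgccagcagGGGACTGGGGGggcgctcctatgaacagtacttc
WT replicate 3, TRBV13-2 and TRBJ2-4: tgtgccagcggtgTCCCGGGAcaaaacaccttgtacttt
WT replicate 4, TRBV13-1 and TRBJ1-1: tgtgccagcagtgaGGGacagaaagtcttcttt
WT replicate 4, TRBV13-2 and TRBJ1-2: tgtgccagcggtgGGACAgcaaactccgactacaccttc
KO replicate 1, TRBV13-1 and TRBJ2-1: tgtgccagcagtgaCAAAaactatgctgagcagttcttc
KO replicate 1, TRBV13-2 and TRBJ1-2: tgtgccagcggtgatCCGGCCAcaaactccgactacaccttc
KO replicate 2, TRBV13-2 and TRBJ2-3: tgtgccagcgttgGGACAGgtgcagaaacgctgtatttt
KO replicate 2, TRBV13-1 and TRBJ2-7: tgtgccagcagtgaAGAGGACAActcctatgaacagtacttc
KO replicate 3, TRBV13-2 and TRBJ2-5: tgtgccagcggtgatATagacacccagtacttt
KO replicate 3, TRBV13-2 and TRBJ2-3: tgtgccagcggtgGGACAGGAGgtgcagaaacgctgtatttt

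The family was a major part of each repertoire. As the mean of both organs, it held 28.0 ± 3.19% of UMIs (mean ± SD, n = 6 mice), and over the 12 libraries it ranged from 21.2% to 38.8%. Counted as clonotypes, each once whatever its size, the family held 23.8 ± 0.973%, and its range over the libraries was narrower, from 21.8% to 25.3%. This count includes clonotypes of 1 UMI, which were 79.7% of family entries. Among in-frame clonotypes of at least 2 UMIs the family held 23.3 ± 1.77%, from 20.8% to 27.3% over the libraries. UMIs count RNA molecules, so more cells and more TCR RNA per cell cannot be told apart in any UMI share.

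TRBV13-2 was the most used of the 31 V segments, with 13.3 ± 2.54% of UMIs over mice. It ranked first in 7 of 12 libraries by UMIs and in 11 of 12 by clonotypes. TRBV13-1 was at rank 4 with 8.19 ± 4.33%, and TRBV13-3 at rank 7 with 6.51 ± 4.43%. Their ranks by library varied more, from 1 to 14 for TRBV13-1 and from 1 to 13 for TRBV13-3. TRBV5, the segment next below TRBV13-2, was lower in 6 of 6 mice, by 4.26 ± 2.33 percentage points. The other neighbours in the order did not differ beyond their spread. TRBV1 exceeded TRBV13-1 by 0.630 ± 6.10 points and TRBV13-1 exceeded TRBV3 by 0.786 ± 3.88, each in 3 of 6 mice. TRBV31 exceeded TRBV13-3 by 0.487 ± 4.94 points (5 of 6 mice), and TRBV13-3 exceeded TRBV16 by 0.771 ± 2.0 (3 of 6 mice).

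**Figure D1:**
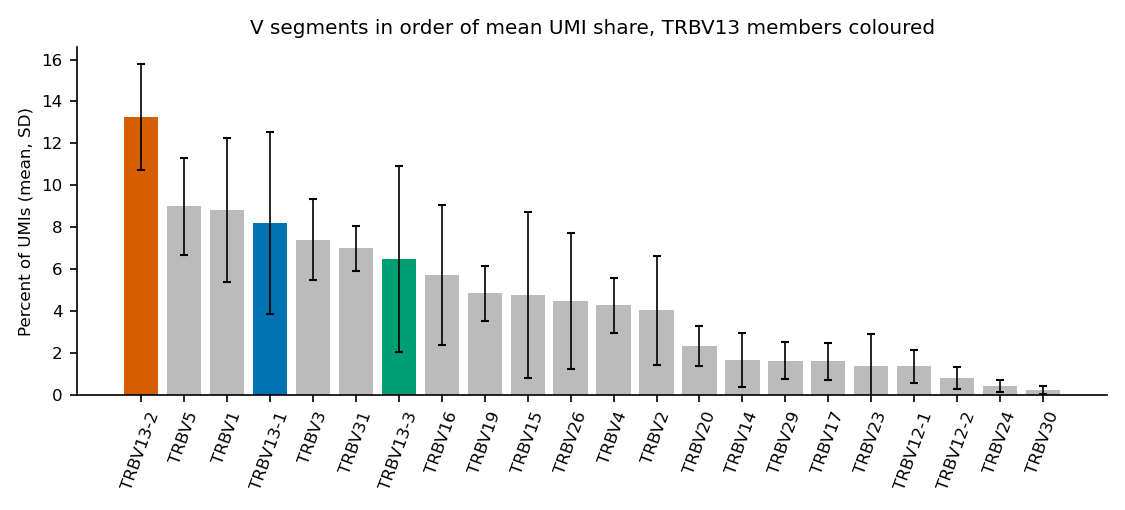
Percent of UMIs for the 22 most used V segments (bars, mean of 6 mice after averaging the organs of each mouse; error bars, SD), in descending order, with TRBV13-2, TRBV13-1 and TRBV13-3 coloured. TRBV13-2 stands first at 13.3%, and the SD bars of TRBV13-1 and TRBV13-3 overlap those of their neighbours.

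Within the family the order depended on what was counted. By UMIs, TRBV13-2 exceeded TRBV13-3 by 6.76 ± 5.75 percentage points and TRBV13-1 by 5.07 ± 5.68, in 5 of 6 mice each. Neither difference passed an exact sign-flip test over 64 patterns (p = 0.0625 and 0.0938, adjusted p = 0.141 for both over 3 comparisons). The exceptions were WT replicate 1, where TRBV13-3 exceeded TRBV13-2 by 3.87 points, and KO replicate 1, where TRBV13-1 exceeded it by 2.91. By clonotypes, TRBV13-2 held 11.5 ± 0.863%, TRBV13-1 6.26 ± 0.957% and TRBV13-3 6.01 ± 0.763%. On that scale TRBV13-2 was higher in 6 of 6 mice in both comparisons (exact sign-flip p = 0.0312, the smallest the test can give, adjusted p = 0.0469). TRBV13-3 and TRBV13-1 differed by −1.69 ± 7.68 points of UMIs (exact sign-flip p = 0.562) and by −0.256 ± 1.21 points of clonotypes (exact p = 0.656). Among in-frame clonotypes of at least 2 UMIs, TRBV13-2 held 11.5 ± 1.27%, TRBV13-1 5.66 ± 0.586% and TRBV13-3 6.19 ± 1.13%, given without a test.

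In some libraries a single clonotype set the UMI share of a member. In WT replicate 1 spleen TRBV13-3 took 22.9% of UMIs (95% interval 22.1% to 23.7%), and 73.2% of these belonged to the TRBV13-3 and TRBJ2-7 clonotype whose CDR3 is shown above. The rest of TRBV13-3 held 6.13% of the library, against 1.65% to 6.42% in the other spleens without their own largest TRBV13-3 clonotype. These values keep the left-out clonotype in the library total. In WT replicate 1 spleen it was 16.7% of that total, so 6.13% understates the share among the remaining UMIs. TRBV13-1 reached 16.4% in KO replicate 1 spleen and 12.2% in WT replicate 4 spleen, where the clonotypes with TRBJ2-1 and with TRBJ1-1 supplied 53.9% and 62.8% of the segment. Without them TRBV13-1 stood at 7.57% and 4.55% of the full library totals. In KO replicate 1 mLN it was otherwise, since TRBV13-1 took 15.6% of UMIs with 4.88% of clonotypes. It still had 10.2% of the full library total without its largest clonotype. No V segment followed the family total closely over the 12 libraries. Of 22 segments compared, Pearson's r of log2(percent + 0.1) was highest for TRBV8 at 0.50 (Spearman 0.12, mean share 0.0127%), TRBV3 at 0.13 and TRBV12-1 at 0.01. The members' own r were −0.50 for TRBV13-1 with TRBV13-2, −0.41 for TRBV13-1 with TRBV13-3 and −0.12 for TRBV13-2 with TRBV13-3. All these values share libraries and are shares of 1 total, so they are given as description.

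To ask whether loss of AMPKα1 changed use of the family, its share was compared between KO and WT within each organ. In spleen the WT mice had 38.8%, 23.5% and 28.2% of UMIs in the family (replicates 1, 3 and 4) and the KO mice 27.4%, 21.2% and 26.8% (replicates 1, 2 and 3). The groups overlapped, and their means of 30.2 ± 7.83% and 25.1 ± 3.45% differed by −5.03 percentage points (two-sided exact permutation test over 20 assignments, p = 0.4, adjusted p = 0.56 over 7 comparisons of genotypes). Split by kind, libraries with few unusual J ends gave −11.4 (1 against 1) and those with many gave −1.88 (2 against 2). Without WT replicate 1 it was −0.728, and without the 10 largest clonotypes of each library −1.94. In mLN the WT mice had 24.5%, 27.0% and 25.7% and the KO mice 36.3%, 27.4% and 28.8%. Here all 3 KO values were above the 3 WT values, by 5.12 points in the mean (30.8 ± 4.76% against 25.7 ± 1.22%, exact permutation p = 0.1, which is the smallest p this design allows, adjusted p = 0.56). Split by kind it was 8.02 (few, 2 KO against 1 WT) and 1.10 (many, 1 KO against 2 WT), and without KO replicate 1 it was 2.40. It was 1.78 without the 10 largest clonotypes of each library and took the other sign by clonotypes, with −1.06 points.

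**Figure D2:**
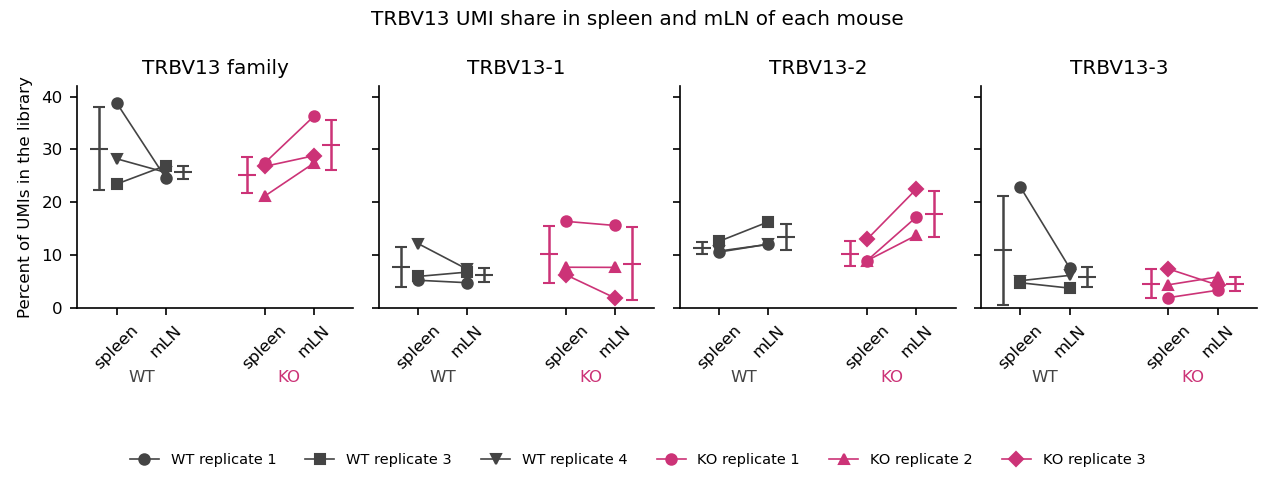
Percent of UMIs taken by the TRBV13 family and by each member in spleen and mLN (y axis); each line joins the organs of 1 mouse (WT grey, KO magenta), and the offset bars show mean and SD of 3 mice. TRBV13-2 lay higher in mLN than in spleen in all 6 mice, and TRBV13-3 of WT replicate 1 spleen stands apart at 22.9%.

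For single members edgeR's quasi-likelihood test was run over all V segments with enough UMIs. In spleen 2 of 25 segments (8.0%) had an adjusted p under 0.05 and no TRBV13 member was among them. TRBV13-3 took 22.9%, 4.81% and 5.21% of UMIs in WT spleens and 1.997%, 4.43% and 7.45% in KO spleens. These overlapping values gave a log2 fold change of −1.24 ± 0.51 (SE, adjusted p = 0.141), which was −0.11 without WT replicate 1. TRBV13-1 took 5.29%, 6.01% and 12.2% in WT and 16.4%, 7.75% and 6.33% in KO (0.37 ± 0.49, adjusted p = 0.7). TRBV13-2 took 10.6%, 12.7% and 10.8% in WT and 9.01%, 8.99% and 13.03% in KO (−0.14 ± 0.47, adjusted p = 0.839). In mLN 0 of 23 segments (0.0%) passed, 1 had an unadjusted p under 0.05, and DESeq2 also called 0. TRBV13-2 took 12.1%, 16.3% and 12.1% in WT mLN and 17.2%, 13.8% and 22.5% in KO mLN, which overlapped (log2 fold change 0.40 ± 0.30, adjusted p = 0.705 in edgeR). It was 0.20 without KO replicate 3 and 0.0494 with clonotypes in place of UMIs. TRBV13-1 (0.42 ± 0.56) and TRBV13-3 (−0.36 ± 0.52) had the same adjusted p.

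The organs of a mouse were compared next. The family share was 28.3 ± 4.19% in mLN and 27.6 ± 6.07% in spleen, with a difference of 0.628 ± 8.26 points that was positive in 4 of 6 mice (exact sign-flip p = 0.844). No member passed edgeR's test between organs. TRBV13-2 was higher in mLN in 6 of 6 mice, by 1.49, 3.69 and 1.28 points in WT and by 8.22, 4.79 and 9.48 in KO. With the mouse as a block its log2 fold change was 0.51 ± 0.15 (SE, edgeR adjusted p = 0.113), against a median of −0.05 over the 25 segments tested. It was 0.27 without the 10 largest clonotypes and 0.0992 with clonotypes in place of UMIs. The 3 KO differences were above the 3 WT ones, by 5.35 points in the mean, which was noticed after the values were seen (exact permutation test, p = 0.1, the smallest possible, and p = 0.9 for TRBV13-1 and 0.5 for TRBV13-3, unadjusted). None of the 25 (0.0%) passed in edgeR, 3 had an unadjusted p under 0.05 with TRBV13-2 among them, and DESeq2 called 1, TRBV12-1. TRBV13-1 was lower in mLN in 5 of 6 mice (−0.38 ± 0.23, adjusted p = 0.524) and TRBV13-3 was higher in 3 (−0.19 ± 0.28, adjusted p = 0.889). The shift of the family between organs was −4.45 ± 9.02 points in WT and 5.70 ± 3.45 in KO. All 3 KO mice had more TRBV13 in mLN, as did 1 of 3 WT mice. The test of this interaction gave 10.2 points at an exact permutation p of 0.2 (adjusted p = 0.56). Without WT replicate 1 it was 5.25 points, without the 10 largest clonotypes 3.72, and with clonotypes in place of UMIs 0.233.

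J segments joined to the family were then compared with those joined to other V segments, counting each in-frame clonotype of at least 2 UMIs once per mouse (3641 family junctions). TRBJ2-7 (chr6:41543810-41543856) and TRBJ2-5 (chr6:41543453-41543501) were the most used, with 18.9 ± 1.82% and 13.03 ± 1.52% of family clonotypes against 17.8 ± 0.855% and 13.3 ± 0.992% elsewhere. By member, TRBJ2-7 was joined to 16.7 ± 5.89% of TRBV13-1, 20.3 ± 1.52% of TRBV13-2 and 18.7 ± 3.49% of TRBV13-3 clonotypes. With edgeR and the mouse as a block, 1 of 12 J segments (8.33%) passed. It was TRBJ1-3 (chr6:41534323-41534372), which made up 8.03 ± 1.66% of family clonotypes and 6.35 ± 0.912% of others and was higher in the family in 6 of 6 mice (log2 fold change 0.34 ± 0.11, adjusted p = 0.0353). It made up 9.23 ± 4.29% of TRBV13-1, 7.68 ± 1.95% of TRBV13-2 and 7.39 ± 3.84% of TRBV13-3 clonotypes. The call was lost in the exact sign-flip test (adjusted p = 0.125), without the mouse as a block (edgeR adjusted p = 0.0516), with DESeq2 (adjusted p = 0.47), with clonotypes of 1 UMI included (adjusted p = 0.608), and without any 1 of 5 mice, KO replicate 2 being the exception. The same direction in every mouse was not particular to TRBJ1-3. TRBJ1-2 was higher in the family in 6 of 6 mice and TRBJ1-4 in 0 of 6, each with a sign-flip adjusted p of 0.125.

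**Figure D3:**
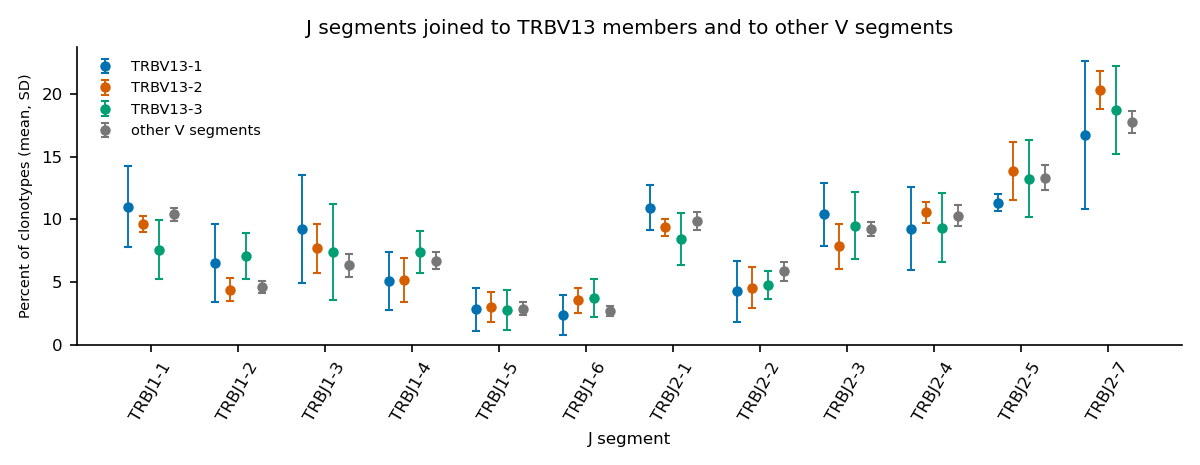
Percent of in-frame clonotypes joined to each J segment (x axis), for the TRBV13 members (coloured) and for all other V segments (grey); points are means of 6 mice and bars are SD. TRBJ2-7 is the highest J segment for each member and for other V segments, and for TRBJ1-3 the 3 member means lie above the grey point.

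TRBJ1-5 (chr6:41535084-41535133) was examined because its use over all V segments had differed between genotypes in earlier work on these tables, so the family values are no independent evidence. In spleen TRBJ1-5 took 0.595%, 3.18% and 5.53% of family UMIs in WT and 0.163%, 0.960% and 0.530% in KO, which overlapped (log2 fold change −2.49 ± 1.15, edgeR adjusted p = 0.393). In mLN it took 0.884%, 2.74% and 6.24% in WT against 0.174%, 0.623% and 0 of 717 UMIs in KO, the last allowing a share of up to 0.418%. All KO values in mLN lay below the WT values (−3.44 ± 1.62, edgeR adjusted p = 0.442). This was not particular to TRBJ1-5. TRBJ2-4, noticed after the values were seen, took 6.20% to 7.81% in KO and 7.86% to 34.8% in WT mLN (edgeR adjusted p = 0.442). No J segment passed in either organ (0 of 12, 0.0%, in each). An unadjusted p under 0.05 was reached by 0 J segments in spleen and by 1, TRBJ1-5, in mLN, and DESeq2 called TRBJ1-5 in spleen (adjusted p = 0.00387) and 0 in mLN. Counted as clonotypes, TRBJ1-5 passed in both organs (−1.61, adjusted p = 0.0366 in spleen and −1.65, adjusted p = 0.0433 in mLN, edgeR), and TRBJ2-3 passed in mLN as well. Not joined to TRBV13, TRBJ1-5 took 2.15 ± 0.726% in WT and 0.937 ± 0.210% in KO spleen, and 1.80 ± 0.461% and 1.12 ± 0.334% in mLN.

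The single base that separates TRBV13-2 from the other members in the germline CDR3 part was visible in the junctions. Of in-frame clonotypes of at least 2 UMIs, 93.4% of TRBV13-2 had glycine at residue 4 after the shared cysteine, alanine and serine, while 84.6% of TRBV13-1 and 83.0% of TRBV13-3 had serine there. Aspartate, encoded by the germline end of all 3 segments, stood at residue 5 in 49.3 ± 4.60% of TRBV13-2 (n = 6 mice), 40.9 ± 2.42% of TRBV13-1 and 41.0 ± 2.56% of TRBV13-3 clonotypes, against 2.87 ± 0.499% with other V segments. The whole V end was kept in 27.9 ± 3.66% of TRBV13-2, 22.7 ± 1.95% of TRBV13-1 and 15.2 ± 3.72% of TRBV13-3 clonotypes. The mean number of V bases removed was 2.09 ± 0.241, 2.38 ± 0.214 and 2.67 ± 0.197 in the same order. These are descriptions over mice and were not tested.

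Lengths of the CDR3 barely differed. Family clonotypes had a mean of 41.5 ± 0.196 nucleotides and others 41.3 ± 0.0911. The difference of 0.194 ± 0.261 had the same sign in 5 of 6 mice (exact test over sign patterns, p = 0.156, also 0.156 when adjusted over 5 comparisons). The most frequent length was 42 nucleotides, found in 31.3% of family junctions. Between the V and J matches lay 9.02 ± 0.251 bases in the family and 8.69 ± 0.175 elsewhere, where overlapping matches count as negative (difference 0.327 ± 0.392, exact p = 0.125, adjusted p = 0.156). By genotype, family CDR3s of the spleen averaged 41.4 ± 0.164 nucleotides for WT and 41.3 ± 0.136 for KO, and those of the mLN 41.6 ± 0.204 and 41.7 ± 0.393. The differences of −0.104 and 0.0433 nucleotides were smaller than these SDs (exact permutation p = 0.4 and 0.9). Over all in-frame clonotypes, with those of 1 UMI included, the spleen difference was 0.606.

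The nonproductive share of transcripts, those out of frame or with a stop codon, was compared between the family and other V segments. This share of UMIs was 2.89%, 3.004% and 1.496% for TRBV13 in WT replicates 1, 3 and 4 and 1.28%, 4.83% and 1.58% in KO replicates 1, 2 and 3. The same mice had 6.89%, 6.61%, 7.58%, 4.06%, 6.70% and 5.87% with other V segments. The family value was the lower one in 6 of 6 mice, by 3.77 ± 1.43 points on average. This gave the smallest p of the exact sign-flip test (p = 0.0312), and the adjusted p over the 5 comparisons was 0.0781, above 0.05. Without the 9 V segments that GENCODE annotates as pseudogenes, an alternative added after the data were seen, the difference was −3.30 points. Among 22 V segments with at least 1000 UMIs, TRBV13-2 (2.17%) was at rank 2 from the lowest nonproductive share, TRBV13-3 (2.65%) at rank 4 and TRBV13-1 (3.96%) at rank 6, with TRBV3 (1.59%) the lowest. TRBV13-1 ranged from 0.902% to 8.34% over mice and other V segments from 4.06% to 7.58%. This member was therefore not the lower one in every mouse.

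Clone size was compared in the same way. The mean number of UMIs per in-frame clonotype of at least 2 UMIs was 1.32 times that of other V segments (log2 difference 0.40 ± 0.17), with ratios from 1.17 to 1.64 over the mice and the family higher in 6 of 6. The exact sign-flip p was 0.0312 and the adjusted p 0.0781, which also did not pass. By library the family mean was higher in 11 of 12, with WT replicate 1 mLN as the exception (16.1 against 16.9 UMIs). TRBV13-1 and TRBV13-2 were each higher than the other V segments in 10 of 12 libraries and TRBV13-3 in 4. Among the 22 V segments with at least 1000 UMIs, TRBV13-1 ranked 1 by median clone size over mice (88.9 UMIs) and TRBV13-2 ranked 2 (69.2). TRBV17 (66.2), TRBV5 (65.6), TRBV26 (62.7) and TRBV1 (56.7) followed, ahead of TRBV13-3 at rank 7 (54.3). Large clones were thus not particular to the family. Among the 100 largest clonotypes of a library, 20 to 32 belonged to the family, which made up 21.8% to 25.3% of all clonotypes. The count was below that share in both organs of WT replicate 3 and in the spleens of WT replicate 4 and KO replicate 3.

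**Figure D4:**
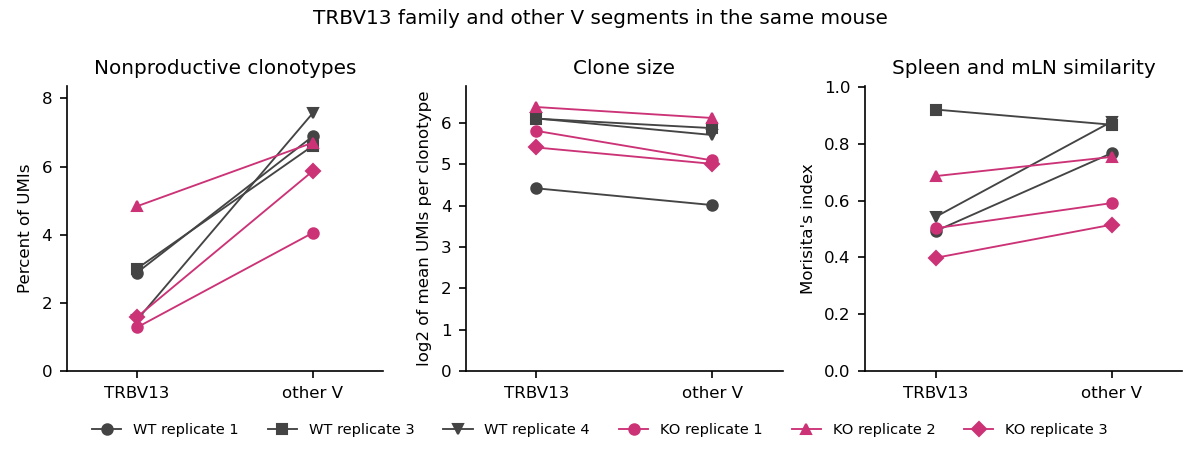
Nonproductive share of UMIs (left), log2 of mean UMIs per in-frame clonotype of at least 2 UMIs (middle) and Morisita's index between spleen and mLN (right) for the TRBV13 family and for all other V segments; each line is 1 mouse (WT grey, KO magenta), the left and middle panels being means of both organs. The left panel rises and the middle panel falls from TRBV13 to other V in all 6 mice, and the right panel rises in 5.

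Inside the family, the largest clonotype of a library held 5.44% to 43.2% of family UMIs. Among spleens WT had 43.2%, 18.4% and 27.2% and KO had 32.3%, 5.44% and 6.35%, which overlapped, with means of 29.6 ± 12.5% and 14.7 ± 15.2% (difference −14.9 points, exact permutation p = 0.3, adjusted p = 0.56). The difference was −8.14 without WT replicate 1 and −23.7 without KO replicate 1. Among mLN libraries WT had 10.2%, 26.6% and 11.01% and KO had 15.9%, 6.995% and 19.7% (means 15.96 ± 9.24% and 14.2 ± 6.51%, exact permutation p = 0.8). The mLN difference of −1.76 points turned to 3.57 without WT replicate 3. Split by kind it was 7.56 (few unusual J ends) and −11.8 (many). The largest family clonotype was a TRBV13-2 rearrangement in 7 of 12 libraries, a TRBV13-1 in 3 and a TRBV13-3 in 2.

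Large family clonotypes were found in both organs of their mouse at unequal levels. The TRBV13-3 clonotype of WT replicate 1 had 16.7% in spleen and 2.51% in mLN. The TRBV13-1 and TRBJ1-1 clonotype of WT replicate 4 had 7.68% and 1.64%. The TRBV13-1 and TRBJ2-1 clonotype of KO replicate 1 had 8.85% (8.63% to 9.07%) and 0.850% (0.741% to 0.975%). Other large TRBV13-1 clonotypes of KO replicate 1 were higher in mLN, with 5.41% against 3.19%, 3.04% against 0.968% and 2.56% against 1.38%. The clonotype of each member with most UMIs over both organs was higher in mLN in 2 of 6 mice for TRBV13-1, in 3 for TRBV13-3 and in 5 for TRBV13-2, a description with no test. In mLN and spleen those of TRBV13-2 had 1.88% and 1.44% in WT replicate 1 (joined to TRBJ2-5), 7.18% and 4.33% in WT replicate 3 (TRBJ2-4), and 2.82% and 1.38% in WT replicate 4 (TRBJ1-2). In KO they had 5.78% and 2.60% in replicate 1 (TRBJ1-2) and 1.92% and 0.577% in replicate 2 (TRBJ2-3). KO replicate 3 was the exception, where the TRBV13-2 and TRBJ2-3 clonotype had 1.005% in mLN (0.682% to 1.48%, 25 UMIs) and 1.70% in spleen. Choosing clonotypes by summed UMIs weighs the deeper library more and so favours clonotypes high in that organ. For KO replicate 3 this was the spleen, with 220935 UMIs against 2488 in mLN. In that mouse the largest family clonotype of the mLN was the one of TRBV13-2 and TRBJ2-5, with 5.67% in mLN and 0.355% in spleen.

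Of the 20 largest family clonotypes of each spleen, 20 were found in the mLN of the same mouse in 5 mice and 18 in KO replicate 3, whose mLN library was the smallest. All 20 largest of each mLN were found in the spleen. Morisita's index, which weighs shared clonotypes by frequency and is little affected by depth, was 0.590 ± 0.187 for the family and 0.728 ± 0.147 for other V segments. By mouse, the family index was 0.493, 0.920 and 0.542 (WT) and 0.503, 0.686 and 0.398 (KO). It was below that of other V segments in 5 of 6 mice, WT replicate 3 being the exception (difference −0.138 ± 0.143, exact test over sign patterns, p = 0.0625 and 0.104 after adjustment).

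**Figure D5:**
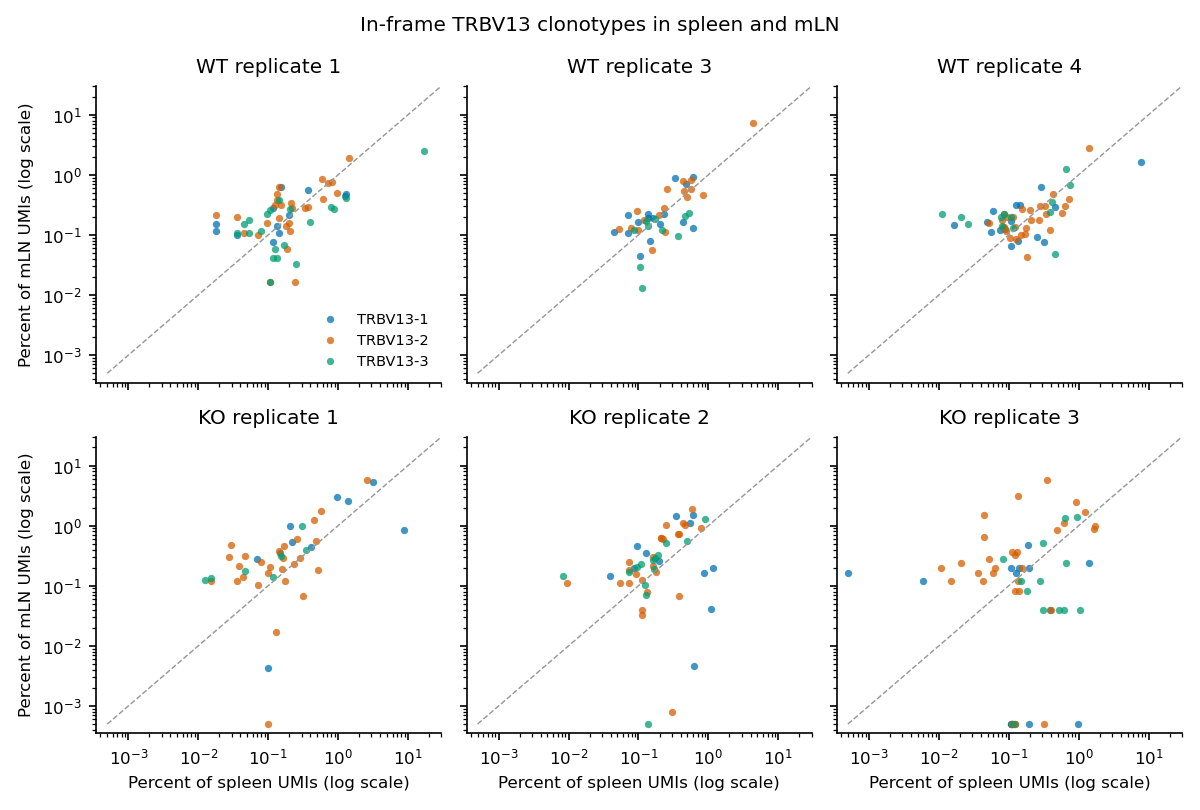
Percent of spleen UMIs (x axis) against percent of mLN UMIs (y axis), both on log scales, for in-frame TRBV13 clonotypes with at least 0.1% in either organ; 1 panel per mouse, colours mark the member, the dashed line is equality, and clonotypes not found in an organ are drawn on the lowest level. The spleen-high clonotype of WT replicate 1 at 16.7% and that of KO replicate 1 at 8.85% lie below the line.

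Few family CDR3s recurred between mice. Of 20735 in-frame amino acid CDR3s in the family, 97.7% were found in 1 mouse, 391 in 2, 66 in 3, 11 in 4, 1 in 5 and 1 in all 6. These counts include clonotypes of 1 UMI, which were 79.7% of family entries, and the libraries differed in depth. No such count is given for other V segments, so low sharing is not shown to be particular to the family. Those in the most mice were the amino acid sequence of the TRBV13-3 clonotype of WT replicate 1 (6 mice, 7 nucleotide sequences), a sequence of TRBV13-2 and TRBJ2-5 (5 mice, 3 nucleotide sequences), and those of the largest clonotypes of WT replicate 3 (TRBV13-2 and TRBJ2-4), KO replicate 1 (TRBV13-1 and TRBJ2-1) and WT replicate 4 (TRBV13-1 and TRBJ1-1), in 4 mice each. Apart from the sequence found in 5 mice these are leading clonotypes of 1 mouse, shown above. In any other mouse their nucleotide sequence reached at most 0.00664%, 0.00412%, 0.0077% and 0.0306% of UMIs, in the order WT replicate 1, WT replicate 3, KO replicate 1 and WT replicate 4 clonotype. When clonotypes with a share 100-fold or more higher in some other mouse were left out, 98.3% were found in 1 mouse, 318 in 2, 26 in 3, 7 in 4 and 1 in 5. That last one was the TRBV13-2 and TRBJ2-5 sequence of 11 residues, seen in 2 WT and 3 KO mice at up to 0.016% of UMIs. It was encoded by 3 nucleotide sequences, shown because they reach 1 protein sequence with no base between the V and the J match.
WT replicates 3 and 4 and KO replicate 3: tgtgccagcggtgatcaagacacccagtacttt
KO replicate 2: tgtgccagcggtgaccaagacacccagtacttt
KO replicate 1: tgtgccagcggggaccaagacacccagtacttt
The next in that order, chosen after their values were seen, were found in 4 mice each. They were the TRBV13-3 sequence of WT replicate 1, a sequence of TRBV13-2 and TRBJ2-7, a sequence of TRBV13-2 and TRBJ1-3, and a sequence of TRBJ2-3 that was made with TRBV13-1 as well as with TRBV13-3. The TRBV13-3 sequence had 2188 UMIs in WT replicate 1. Its exact nucleotide sequence, at most 0.00664% of UMIs in any other mouse, had been left out there by the 100-fold rule. What remained in WT replicates 3 and 4 and KO replicate 2 were close nucleotide variants of at most 5 UMIs each. Leaving out carried-over sequences required an exact nucleotide match, so copies with an error would stay, which was not tested. For the other 3 the most frequent nucleotide form is shown. The TRBV13-2 and TRBJ2-7 form reached 0.810% in WT replicate 3. The TRBJ2-3 form had the same bases with TRBV13-1 in WT replicate 4 and with TRBV13-3 in WT replicate 1 and KO replicate 2.
TRBV13-2 and TRBJ2-7: tgtgccagcggGtatgaacagtacttc
TRBV13-2 and TRBJ1-3: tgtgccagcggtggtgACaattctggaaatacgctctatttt
TRBV13-1 or TRBV13-3 and TRBJ2-3: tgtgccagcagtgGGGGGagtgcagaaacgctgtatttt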

How the data were processed

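According to the study's methods, the authors primed cDNA from the constant region of the beta chain and attached UMIs by 5′ RACE, so no V segment primer was used, then clustered reads by UMI with MIGEC and assigned V, D and J segments with MiXCR at default parameters. Versions, segment reference and genome build are not given in the sources used here. The count that the authors deposited for each clonotype holds whole numbers with no unit named and was read as UMIs. The deposited fraction is this count relative to its library and served as a check. Downsampling by the authors is not applied in these tables, and none was done here.

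Members and lists were chosen with earlier results of these data known. The family was taken by best V hit. UMIs or clonotypes per segment were tested with edgeR 4.0.16 (quasi-likelihood, library totals, a filter of 10 UMIs in 3 or more libraries, Benjamini-Hochberg adjustment over all segments tested) in R 4.3.3. DESeq2 1.42.0 was an alternative. Only the edgeR genotype fit of V segments was tried on simulated data, with changes far larger than those of TRBV13 set in little-used segments. That trial does not show whether changes of the size seen here would be found, and it did not cover the other fits. Single values were compared in Python 3.11.15 by two-sided exact permutation tests over 20 assignments (smallest p 0.1) or, for values of the same mouse, by exact sign-flipping of all 64 patterns (smallest p 0.0312). Nothing in the labels says whether the 3 mice of a group had separate donors, so p-values measure the spread between mice. Organs with the same genotype and number were taken as 1 mouse, and their deviations in V usage from the group means correlated at 0.722 (0.361 to 0.846 over 6 mice).

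Named were the members, their neighbours by mean share, the 3 V segments most like the family total, the J segments past the threshold, the 2 most used and TRBJ1-5, the leading clonotypes, and the 5 amino acid CDR3s in most mice. A few other segments are named beside these for comparison. Sequences and positions are from NCBI RefSeq, GRCm38.p6. Alternatives left out mice, tied V hits, small or nonproductive clonotypes or the filter, or changed the counting unit, the scaling or the block.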

Additional observations from a re-analysis of the deposited data

Results flagged for a closer look

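Among 16 sets of 6 mouse values examined for the family, 3 held a mouse set apart from the other 5 by Dixon's criterion, which flags about 1 in 20 sets by chance. The mean TRBV13-3 share over both organs was 15.2% in WT replicate 1 and 2.70% to 5.91% in the other mice. The difference in TRBV13-3 share between mLN and spleen was −15.3 percentage points in the same mouse and −3.07 to 1.49 in the others. Both values contain the largest TRBV13-3 clonotype of that mouse. Without that clonotype's UMIs the segment held 6.13% of that spleen, whose total still counted the clonotype. The log2 ratio of clone size between the family and other V segments was 0.72 in KO replicate 1 and 0.23 to 0.41 in the others.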

How the results depend on the processing

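Over 34 results 522 values were recomputed, and 447 held both direction and side of the threshold. Leaving out the 10 largest clonotypes, unusual J ends, sequences far more frequent in another mouse or pseudogene V segments was chosen after seeing the data. Genotype comparisons of single values cannot pass, since the smallest exact p is 0.1, and with 5 mice the smallest sign-flip p is 0.0625. The smallest library, KO replicate 3 mLN with 717 family UMIs, limits shares to 0.418% of the family. The causes of the changes below were not tested.

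Counting clonotypes in place of UMIs turned the family difference between KO and WT in mLN to −1.06 points and that between mLN and spleen to −0.204, and brought TRBV13-2 above TRBV13-3 (5.47 points) and TRBV13-1 (5.21) past the threshold. It turned the log2 fold change of TRBV13-1 to −0.0774 (KO against WT, spleen) and −0.13 (mLN) and that of TRBV13-3 between organs to 0.0192, and called 1 V segment in spleen and 1 (spleen) and 2 (mLN) J segments among family UMIs. Without the 10 largest clonotypes TRBV13-2 passed against TRBV13-3 (6.63) and TRBV13-1 (6.86), TRBV13-3 minus TRBV13-1 turned to 0.233, TRBV13-1 turned to −0.34 (KO against WT, mLN) and 0.0127 (mLN against spleen), 0 V segments were called in spleen and 1 J segment among family UMIs in spleen. In mLN alone TRBV13-2 passed against TRBV13-3 (10.5) and TRBV13-1 (8.29). The family's CDR3 length difference from other V segments turned to −0.0249 with at least 10 UMIs and −0.0709 weighted by UMIs, and its junction difference to −0.0378 weighted. CDR3 length between genotypes turned to 0.486 (weighted) and 0.606 (all in-frame clonotypes) in spleen and to −0.0609 (without unusual J ends) in mLN. DESeq2 called 1 V segment in spleen, 1 between organs, 1 J segment among family UMIs in spleen and 0 J segments of the family against other V. The latter count was also 0 with all in-frame clonotypes, with at least 10 UMIs, with UMIs, in the sign-flip test and with no replicate block. Without clonotypes of 1 UMI, and with no filter, 1 V segment was called in spleen.

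Leaving out 1 mouse gave −1.02 to 3.60 points for the family between organs, −4.06 to 0.640 for TRBV13-3 minus TRBV13-1, −4.62 to 3.57 for the largest family clonotype between genotypes in mLN, −0.18 to 0.188 nucleotides for CDR3 length there, 0 to 1 V segments called in spleen and 0 to 1 J segments of the family. For TRBV13-1 it gave log2 fold changes of −0.16 to 0.85 (spleen) and −0.38 to 0.88 (mLN) between genotypes, and for TRBV13-3 −0.39 to 0.0764 between organs.

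WT and KO mice share only replicate numbers 1 and 3. Their deviations correlated at 0.156 (−0.0296 to 0.316 over 4 pairs), so the numbers were not taken as pairs. When replicate numbers entered as a block, 0 V segments were called in spleen and 2 in mLN, TRBV1 and TRBV13-2 (log2 fold change 0.49, edgeR adjusted p = 0.00547), and TRBV13-1 in mLN turned to −0.0372. In such a fit the genotype effect comes from the mice numbered 1 and 3 alone. It leaves almost no replication to judge their spread, so no conclusion is drawn from these calls. Of 18 results with the block, 14 held direction and side.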
